A study of Mus musculus with 12 samples.

Results

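Replication protein A (RPA) is the heterotrimer that coats single-stranded DNA in eukaryotic cells, and its 3 subunits are encoded by Rpa1, Rpa2 and Rpa3. All 3 genes were represented on the array by 1 probe each, found by matching the probe's RefSeq accession to the gene. They made up 3 of the 17305 genes that could be named on the array. The 3 probes were well above background on all 12 arrays and none was saturated, so all 3 members passed the filter on dim probes. Rpa1 drew attention because it was among the features called lower after irradiation in Atm-WT cells, just inside the threshold. Every value from that comparison is therefore a description of the members and carries no test.

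RNA came from mouse embryonic fibroblasts that had the Atm gene (Atm-WT) or lacked it (Atm-KO). Atm encodes a checkpoint kinase that responds to broken DNA. Both genotypes were irradiated at 4.32 Gy and cultured for 72 h, or were nonirradiated, which gave 4 groups of 3 samples, with 1 single-colour array for each sample. The sources used here do not give the strain, the passage, the embryos of origin or how Atm was disrupted, nor whether samples of a group came from separate cultures, so p-values measure only the spread among these samples, which may be technical.

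RPA binds the single strands that arise when a replicative helicase unwinds DNA or when nucleases resect a break. It protects them and hands them over to other proteins, among them the Atrip subunit that brings the Atr checkpoint kinase to the DNA. Rpa1 is the large subunit and holds most of the DNA-binding domains. Rpa2 is the middle subunit, whose N-terminal region is phosphorylated by damage kinases, and Rpa3 is the small subunit, which the trimer needs for its assembly. The subunits are used together in 1 complex, so the comparison of interest was whether their transcripts shifted together when fibroblasts were irradiated.

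Since all 3 transcripts were lower in irradiated cells, the sequences around their starts are shown. RefSeq (GRCm38.p6) placed the Rpa1 window at chr11:75348334-75348633 on the minus strand, the Rpa2 window at chr4:132768110-132768409 on the plus strand and the Rpa3 window at chr6:8259092-8259391 on the minus strand. Each window runs from 250 bases before the start to 50 bases after it, 5′ to 3′ on the gene's strand. Capitals mark CCAAT boxes (CCAAT, read as ATTGG on the other strand) and GC boxes (GGGCGG, read as CCGCCC on the other strand), which do not overlap each other here.
Rpa1: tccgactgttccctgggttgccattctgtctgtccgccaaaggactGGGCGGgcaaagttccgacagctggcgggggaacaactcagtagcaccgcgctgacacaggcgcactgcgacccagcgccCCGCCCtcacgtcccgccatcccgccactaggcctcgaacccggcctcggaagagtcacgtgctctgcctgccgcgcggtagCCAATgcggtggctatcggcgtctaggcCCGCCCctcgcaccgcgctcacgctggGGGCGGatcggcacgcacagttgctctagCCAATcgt
Rpa2: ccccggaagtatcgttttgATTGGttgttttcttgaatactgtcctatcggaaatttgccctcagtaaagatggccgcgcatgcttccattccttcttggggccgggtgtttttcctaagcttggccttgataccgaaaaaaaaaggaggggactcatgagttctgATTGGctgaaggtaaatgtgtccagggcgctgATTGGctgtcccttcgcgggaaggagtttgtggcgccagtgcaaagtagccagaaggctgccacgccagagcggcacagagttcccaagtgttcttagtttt
Rpa3: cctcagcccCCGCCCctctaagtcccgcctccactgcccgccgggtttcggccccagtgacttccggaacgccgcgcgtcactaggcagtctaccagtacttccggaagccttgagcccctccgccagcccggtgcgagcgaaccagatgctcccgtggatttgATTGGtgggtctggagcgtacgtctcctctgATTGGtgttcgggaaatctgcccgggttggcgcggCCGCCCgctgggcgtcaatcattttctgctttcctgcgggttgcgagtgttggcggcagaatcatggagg
The Rpa1 window held 2 CCAAT boxes and 4 GC boxes, and 67.7% of its bases were G or C. The Rpa3 window held 2 of each, at 64.3% G or C. The Rpa2 window differed in that it held 3 CCAAT boxes, no GC box and 50.7% G or C, against a median of 52.7% over 32851 RefSeq promoter windows. CCAAT occurs in 37.4% of those windows and GGGCGG in 35.7%. The E2F-type letters TTTCCCGC, TTTGGCGC and TTTCGCGC, found in 1.07%, 0.514% and 0.323% of all windows, were not in any of the 3, and nor were the cell cycle homology letters TTTGAA and TTCGAA, found in 17.9% and 1.56%. Both strands were searched for these exact letters only, and variants of them were not looked for. A match of letters is not evidence of a bound site, nor is the lack of a match evidence that none is there.

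All 12 fibroblast markers, collagens and Pdgfra included, were well above background on every array. Macrophage and blood cell markers differed by genotype, with a summed log2 level of 1.40 to 2.80 in the 6 Atm-WT samples and of -1.46 to -0.28 in the 6 Atm-KO samples. Of 13 such markers, 10 to 12 were well above background on each Atm-WT array and 5 to 10 on each Atm-KO array, and Spi1 was on none of the 12. Markers of other cell types also set samples apart. The summed level of skeletal muscle markers was 3.96 and 3.72 in Atm-KO sample 1 without and with irradiation, 1.15 to 1.61 in Atm-KO samples 2 and 3, and 2.18 to 3.20 in Atm-WT samples. Epithelial markers summed to 2.29 and 2.37 in Atm-KO sample 1, to 0.70 to 0.77 in Atm-KO samples 2 and 3, and to 0.39 to 1.66 in Atm-WT samples. Endothelial markers summed to -2.09 to -1.33 in Atm-KO samples 2 and 3 and to -0.79 to 0.32 in the other 8 samples. The part of these cells in the subunits' values was not tested. The brighter Atm probe was well above background on 2 of 3 nonirradiated and 3 of 3 irradiated Atm-WT arrays, and on 0 and 1 of 3 Atm-KO arrays. The other Atm probe passed that mark on 2 and 3 of 3 Atm-WT arrays and on 1 and 3 of 3 Atm-KO arrays, with levels from -6.29 to -3.29 in Atm-WT and from -6.87 to -5.52 in Atm-KO samples, which overlap. Between arrays, the 75th percentile of signal ran from 379.4 to 757.1, and the probes well above background made up 55.3% to 64.5%. Same-numbered samples of a genotype deviated together across features, so they are also read as pairs. Atm-KO sample 2 was an exception, with a correlation of 0.269 to its own number and 0.335 to another. The labels do not say whether same-numbered samples share a culture. Pair 1 of Atm-KO stood apart, with a median change over all features of -0.27, against -0.092 to 0.035 in the other 5 pairs, so values without the number 1 samples are given below. On each slide the nonirradiated samples held the odd array positions and the irradiated samples the even ones, so array position and irradiation cannot be told apart.

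Levels are log2 signal minus the 75th percentile of signal on the same array. A difference of -1 is thus a halving of the signal. Levels of different probes are not comparable with each other, and only changes are set side by side.

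Rpa1 read 2.87, 3.00 and 2.62 in nonirradiated Atm-WT samples 1, 2 and 3, and 1.38, 1.80 and 1.63 in the irradiated ones. In Atm-KO cells it read 2.42, 1.87 and 1.93 without irradiation and 1.49, 1.62 and 1.41 with it. The nonirradiated Atm-WT samples were the 3 highest, the nonirradiated Atm-KO samples came next, and the irradiated samples of both genotypes overlapped at the bottom. The share of all features with this order was not counted, and the order includes the comparison that picked Rpa1.

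In Atm-WT cells Rpa2 read 1.20, 1.36 and 1.09 without irradiation and 0.29, 0.79 and 0.44 with it. The Atm-KO values were 1.91, 1.46 and 1.34 without irradiation and 0.15, 0.97 and 0.75 with it. For this subunit nonirradiated Atm-KO cells had the highest mean, although their range overlapped that of nonirradiated Atm-WT cells. Within each genotype the irradiated samples lay below the nonirradiated ones, a pattern found in 5.7% of features in Atm-WT and 10.4% in Atm-KO cells. Atm-KO sample 1 was the highest of the 12 before irradiation and the lowest of the 12 after it.

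In Atm-WT cells Rpa3 read 2.58, 2.81 and 2.91 without irradiation and 1.75, 1.95 and 1.79 with it. The Atm-KO values were 3.15, 2.29 and 2.31 without irradiation and 1.71, 1.65 and 1.20 with it. The nonirradiated groups overlapped each other. Within each genotype the irradiated samples lay below the nonirradiated ones, as they did for 5.7% of features in Atm-WT and 10.4% in Atm-KO cells. The 3 irradiated Atm-KO samples were the lowest of the 12, and the share of all features with that order was not counted.

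**Figure D1:**
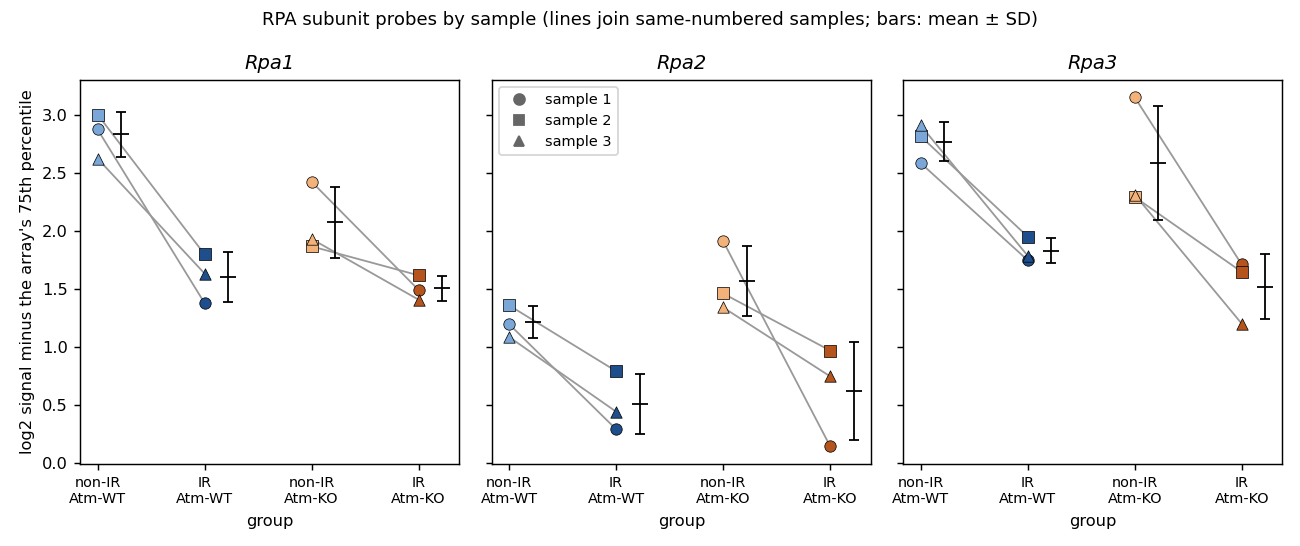
Log2 signal minus the array's 75th percentile for the Rpa1, Rpa2 and Rpa3 probes in each of the 4 groups. Points are single samples, marker shapes give the sample number, grey lines join same-numbered samples, and the bars beside them are the mean ± SD of 3 samples. All 18 lines slope down from nonirradiated to irradiated cells, and the nonirradiated Atm-WT samples stand above the nonirradiated Atm-KO samples for Rpa1 but not for Rpa2 or Rpa3.

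In Atm-WT cells the large subunit had the largest drop in level of the 3. Rpa1 went from a mean of 2.83 ± 0.193 to 1.60 ± 0.211 (SD, n = 3 each), a difference of -1.23 ± 0.238 (SE) with a 95% interval from -1.75 to -0.71, or a signal 2.35-fold lower. Its same-numbered pairs differed by -1.50, -1.20 and -0.99. Rpa3 went from 2.77 ± 0.167 to 1.83 ± 0.108 (SD, n = 3 each), a difference of -0.94 ± 0.274 with an interval from -1.54 to -0.34, or 1.92-fold lower. The Rpa3 pairs were close to one another at -0.84, -0.86 and -1.12. Rpa2 had the smallest difference, from 1.21 ± 0.137 to 0.51 ± 0.257 (SD, n = 3 each), which was -0.70 ± 0.274 with an interval from -1.30 to -0.11, or 1.63-fold lower. Its pairs differed by -0.91, -0.57 and -0.64.

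The median over all 18440 features tested was -0.020 in this comparison. Differences at least as low as that of Rpa1 occurred in 0.309% of features, as low as that of Rpa3 in 1.2% and as low as that of Rpa2 in 3.32%. Of all features, 82 were called (0.445%) and 4 were called lower (0.0217%), Rpa1 among them. The groups did not overlap, with irradiated cells lower, for 3 of the 3 subunits and for 5.7% of all features, and all 3 pairs were lower for 25.7% of features. Since Rpa1 was picked from this comparison, nothing further is read from these shares. With irradiation 9810 of the 18440 features were below 0 in Atm-WT and 10079 in Atm-KO cells. Of the 10 macrophage and blood cell markers tested, 9 were below 0 in Atm-WT cells, with a median of -0.64. In Atm-KO cells 3 of the 10 markers were, with a median of 0.43. None was called in the fit of group means, 2 were called higher in Atm-KO cells with pairs in the model (1.17% of all features), and their part in the subunits' values was not tested. In bulk RNA, fewer cells that express a gene and less of its RNA per cell cannot be told apart.

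The Atm-KO cells gave a second look at the same 3 subunits on arrays outside the comparison that picked Rpa1, although the fit's spread is shared over all 12 arrays. Every subunit again had irradiated samples below nonirradiated ones in all 3 pairs, as did 23.4% of all features, and without overlap of the groups, as did 10.4%. No subunit passed the test over all features. Rpa3 went from 2.59 ± 0.490 to 1.52 ± 0.278 (SD, n = 3 each), a difference of -1.07 ± 0.274 with an interval from -1.66 to -0.47, or 2.09-fold lower (limma adjusted p = 0.258). Rpa2 went from 1.57 ± 0.301 to 0.62 ± 0.426 (SD, n = 3 each), a difference of -0.95 ± 0.274 with an interval from -1.55 to -0.35, or 1.93-fold lower (limma adjusted p = 0.314). Rpa1 went from 2.07 ± 0.305 to 1.50 ± 0.106 (SD, n = 3 each), a difference of -0.57 ± 0.238 with an interval from -1.09 to -0.052, or 1.48-fold lower (limma adjusted p = 0.573).

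The large subunit thus had the smallest difference of the 3 in Atm-KO cells. The Rpa1 pairs of Atm-KO differed by -0.93, -0.25 and -0.52. The Rpa2 pairs differed by -1.77, -0.49 and -0.59, so that pair 1 lay far below the other pairs. The Rpa3 pairs differed by -1.44, -0.65 and -1.11. Pair 1 had the lowest value for each subunit, as it had for the median of all features.

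Across features, 1 was called in the Atm-KO comparison (0.00542%) and 0 were called lower, while 1462 had an unadjusted p under 0.05 (7.93%). The unadjusted p of the subunits in limma's fit was 0.0337 for Rpa1, 0.0046 for Rpa2 and 0.00213 for Rpa3. Differences as low as that of Rpa3 occurred in 1.23% of features, as low as that of Rpa2 in 1.88% and as low as that of Rpa1 in 9.01%, around a median of -0.048. With same-numbered samples as pairs in the model, the Rpa3 decrease passed the test at -1.07 ± 0.201 (limma adjusted p = 0.0343), among 155 features called lower (0.841%). Rpa2 and Rpa1 did not pass in that fit (limma adjusted p = 0.0989 and 0.168). Without the number 1 samples of all groups, Rpa3 differed by -0.88 (limma adjusted p = 0.148 with pairs), Rpa2 by -0.54 and Rpa1 by -0.39, so the Rpa3 call was lost and the Rpa2 difference shrank by over 1.5 times.

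The slide allowed the comparison to be made among arrays processed side by side. On slide 1, which held pairs 1 and 2 of Atm-WT, the irradiated samples differed by -1.35 for Rpa1, -0.74 for Rpa2 and -0.85 for Rpa3. On slide 2 the single Atm-WT pair gave -0.99, -0.64 and -1.12 in the same order, and the single Atm-KO pair gave -0.93, -1.77 and -1.44. On slide 3, which held pairs 2 and 3 of Atm-KO, the differences were -0.39 for Rpa1, -0.54 for Rpa2 and -0.88 for Rpa3. The sign was thus the same on every slide for every subunit.

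**Figure D2:**
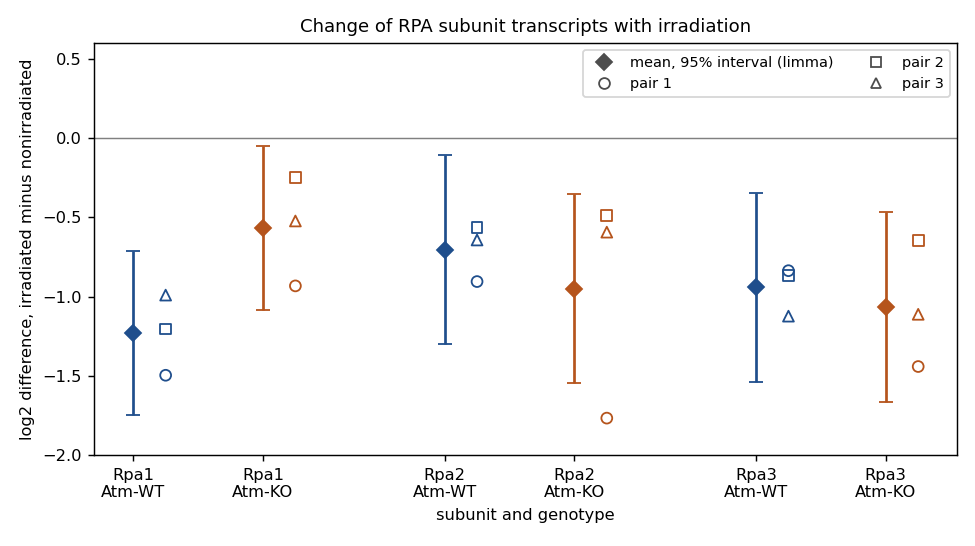
Log2 difference of irradiated minus nonirradiated cells for each subunit in Atm-WT (blue) and Atm-KO (orange) cells. Diamonds are the difference of group means with the 95% interval of limma's fit, and open symbols are the 3 same-numbered pairs. The intervals are not adjusted for the number of features, and those of Atm-WT are a description with no test. In this fit no subunit passed the test over all features in Atm-KO cells. The differences run from -1.23 for Rpa1 in Atm-WT to -0.57 for Rpa1 in Atm-KO. The Rpa2 value of pair 1 in Atm-KO lies at -1.77.

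Whether the subunits shifted by different amounts was read from the difference between 2 subunits on the same array. In Atm-KO cells the Rpa1 change was less negative than the Rpa3 change by 0.50, and by 0.51, 0.40 and 0.59 in pairs 1, 2 and 3. The Rpa1 change was also less negative than the Rpa2 change by 0.38, and by 0.83, 0.24 and 0.070 in the 3 pairs. The Rpa2 and Rpa3 changes differed by 0.12, and by -0.33, 0.15 and 0.52 in the pairs, whose signs were mixed. By an exact two-sided permutation test of 3 against 3 samples, the first 2 of these differences had p = 0.1 each, which is the smallest p the design allows, and the third had p = 0.8. After adjustment over the 3 subunit pairs these were 0.15, 0.15 and 0.8, so none passed.

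In Atm-WT cells Rpa1 had the most negative change on average. The Rpa1 change was more negative than the Rpa2 change by -0.53, and by -0.59, -0.64 and -0.35 in the pairs. It was more negative than the Rpa3 change by -0.29 on average, but the pairs were mixed at -0.66, -0.34 and 0.13. The Rpa2 change was less negative than the Rpa3 change by 0.24, with mixed pairs at -0.069, 0.30 and 0.48. These values contain the comparison from which Rpa1 was picked and were not tested.

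These values again contain the comparison from which Rpa1 was picked, and are a description with no test. The effect of irradiation in Atm-KO cells minus that in Atm-WT cells was 0.66 ± 0.336 for Rpa1, with an interval from -0.070 to 1.39. It was -0.25 ± 0.388 for Rpa2, from -1.09 to 0.60, and -0.12 ± 0.388 for Rpa3, from -0.97 to 0.72. With pairs in the model the intervals ran from 0.021 to 1.30 for Rpa1, from -1.07 to 0.58 for Rpa2 and from -0.77 to 0.52 for Rpa3. None of these intervals is adjusted for the number of features. Of all features, 1 was called for this quantity (0.00542%).

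Before irradiation the group means of the genotypes differed by different amounts for each subunit. Slide 1 held only Atm-WT samples and slide 3 only Atm-KO samples. Outside slide 2, genotype and slide therefore cannot be told apart, here and after irradiation. Nonirradiated Atm-KO cells had a mean Rpa1 level that differed from Atm-WT by -0.76 ± 0.238, with an interval from -1.28 to -0.24, or 1.69-fold lower, and the groups did not overlap, as was the case in that direction for 5.41% of features. The nonirradiated Atm-WT samples in this comparison are the ones that helped to pick Rpa1, so it was not tested. On slide 2, where 1 nonirradiated sample of each genotype lay side by side, the difference was -0.20 for Rpa1, 0.83 for Rpa2 and 0.24 for Rpa3, so that Rpa2 differed most there and Rpa3 had the opposite sign to its group means. Rpa2 differed by 0.36 ± 0.274 (limma adjusted p = 0.993) and Rpa3 by -0.18 ± 0.274 (limma adjusted p = 0.993), while 159 features were called (0.862%). The intervals ran from -0.24 to 0.95 for Rpa2 and from -0.78 to 0.41 for Rpa3.

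After irradiation the means of the genotypes lay closer together for Rpa1 and Rpa2. Rpa1 differed by -0.098, with an interval from -0.61 to 0.42, and was not tested. Rpa2 differed by 0.11 (-0.49 to 0.71) and Rpa3 by -0.31 (-0.91 to 0.29), both with a limma adjusted p of 0.9999, where 38 features were called (0.206%). The Rpa3 groups did not overlap, with Atm-KO lower, as was the case for 3.74% of features. Macrophage and blood cell markers moved with genotype in both comparisons. Of the 10 such markers tested, all 10 were lower in Atm-KO cells, as were 8345 of 18440 features without irradiation and 9386 after it. Their median was -2.89 without irradiation, where 9 were called, and -2.20 after it, where 4 were called. A marker was tested if well above background on all 3 arrays of any 1 group. Some entered only through Atm-WT groups, where they were brighter, so these counts and medians are partly set by the filter. Of all features, 0.472% and 0.146% were called lower in these comparisons. Their part in the subunits' genotype values was not tested.

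The genes that act with RPA had a wide range of differences with irradiation. In both genotypes most of them lay above Rpa2 and Rpa3. Replication fork genes, which encode the helicase, primase, polymerases, clamp and clamp loader that work on RPA-coated templates, were mostly lower. Of 28 tested, 28 had a value below 0 after irradiation in Atm-WT cells, with a median of -0.58 and a range from -0.97 to -0.076, and 26 did in Atm-KO cells, with a median of -0.67 and a range from -1.22 to 0.080. Of all 18440 features, 9810 were below 0 in Atm-WT and 10079 in Atm-KO cells, which also stand beside the counts of the lists below. None of the 28 was called in limma's fit of group means. With pairs in the model 4 of the 28 were called lower in Atm-WT cells, against 0.629% of all features, and 2 in Atm-KO cells, against 0.841%. Without the number 1 samples no feature was called in the paired Atm-KO fit, so each call it gave here and below was lost.

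The fork genes with the smallest p in Atm-KO cells were Mcm5 and Mcm2, subunits of the replicative helicase, and Rfc5 of the clamp loader. Mcm5 differed by -1.22 ± 0.266 in Atm-KO cells (limma adjusted p = 0.18, and 0.031 with pairs) and by -0.79 in Atm-WT cells. Mcm2 differed by -0.85 ± 0.229 in Atm-KO cells (limma adjusted p = 0.278) and by -0.69 in Atm-WT cells. Rfc5 differed by -0.98 in Atm-KO and by -0.58 in Atm-WT cells. Pcna, the sliding clamp, differed by -0.70 and -0.78. In Atm-KO cells 15 of the 28 fork genes lay below Rpa1, 2 below Rpa2 and 1 below Rpa3. Of the 18440 features, 1660, 346 and 226 did. In Atm-WT cells 0, 6 and 1 of the 28 did, in the same order, against 56, 612 and 221 of all features. Rpa1 was picked for its low value in Atm-WT cells. Its count of 0 there follows from that choice, so its place among fork genes is not compared between genotypes.

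The genes that read the RPA filament for the checkpoint were spread around 0. Of 21 tested genes of Atr signalling and fork protection, 15 were below 0 in Atm-WT cells, with a median of -0.096, and 12 were in Atm-KO cells, with a median of -0.030. None was called in either fit in either genotype. Atr, the checkpoint kinase, differed by 0.42 ± 0.517 in Atm-WT and 0.70 ± 0.517 in Atm-KO cells, and its partner Atrip by 0.051 and -0.25. The lower values included Timeless, a fork protection factor, at -0.69 and -0.75, Rad1 of the checkpoint clamp at -0.59 and -0.67, and the nuclease Dna2 at -0.71 and -0.75, in Atm-WT and Atm-KO cells in turn.

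Of 15 tested recombination and excision repair genes whose products act on RPA-coated DNA, 10 were below 0 in each genotype, with medians of -0.096 and -0.076 in Atm-WT and Atm-KO cells. The lowest were Ung, the uracil glycosylase that binds RPA, and Exo1, a resection nuclease. Ung differed by -1.01 in Atm-WT and -1.04 in Atm-KO cells, and Exo1 by -0.91 and -1.02. Neither passed in the fit of group means, and both fell in both genotypes with pairs in the model, where limma's adjusted p ran from 0.0244 to 0.0333. Rad54l, a DNA translocase, differed by -0.71 and -0.88, with no call in either fit in either genotype.

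The 9 other single-stranded DNA binding and RPA import genes tested had medians of -0.12 in Atm-WT and -0.046 in Atm-KO cells, with no call in either fit. Rpain, which carries RPA into the nucleus, differed by -0.50 and -0.59, and Ssbp1, the mitochondrial single-strand binding protein, by -0.60 and -0.50. Nabp1 and Nabp2, the single-strand binding proteins of the sensor complex, differed by 0.16 and 0.015 in Atm-WT cells and by 0.37 and -0.11 in Atm-KO cells.

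Cell division markers, which are transcribed mainly by cycling cells, had values below 0 along with the subunits. All 20 were below 0 in Atm-WT cells, with a median of -0.84, and 18 of 20 were in Atm-KO cells, with a median of -0.98. None was called in the fit of group means, and 6 and 8 were called lower with pairs in the model, against 0.629% and 0.841% of all features. Birc5, a chromosomal passenger protein, differed by -1.05 in Atm-WT and -1.47 in Atm-KO cells. The mitotic cyclin Ccnb2 differed by -1.15 and -1.30, and the mitotic kinase Aurkb by -0.99 and -1.21. Bub1 and Cenpe went the other way in Atm-KO cells, at 0.15 and 0.078. The summed log2 level of the 20 markers was 6.59 to 7.70 in nonirradiated samples and 5.83 to 6.09 in irradiated samples. Bright markers such as Birc5 weigh most in that sum, and weak ones hardly count. Pair by pair the median of the markers was -0.89, -0.82 and -0.88 in Atm-WT and -1.04, -0.86 and -0.65 in Atm-KO cells. The part of the share of dividing cells in the subunits' values was not tested.

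**Figure D3:**
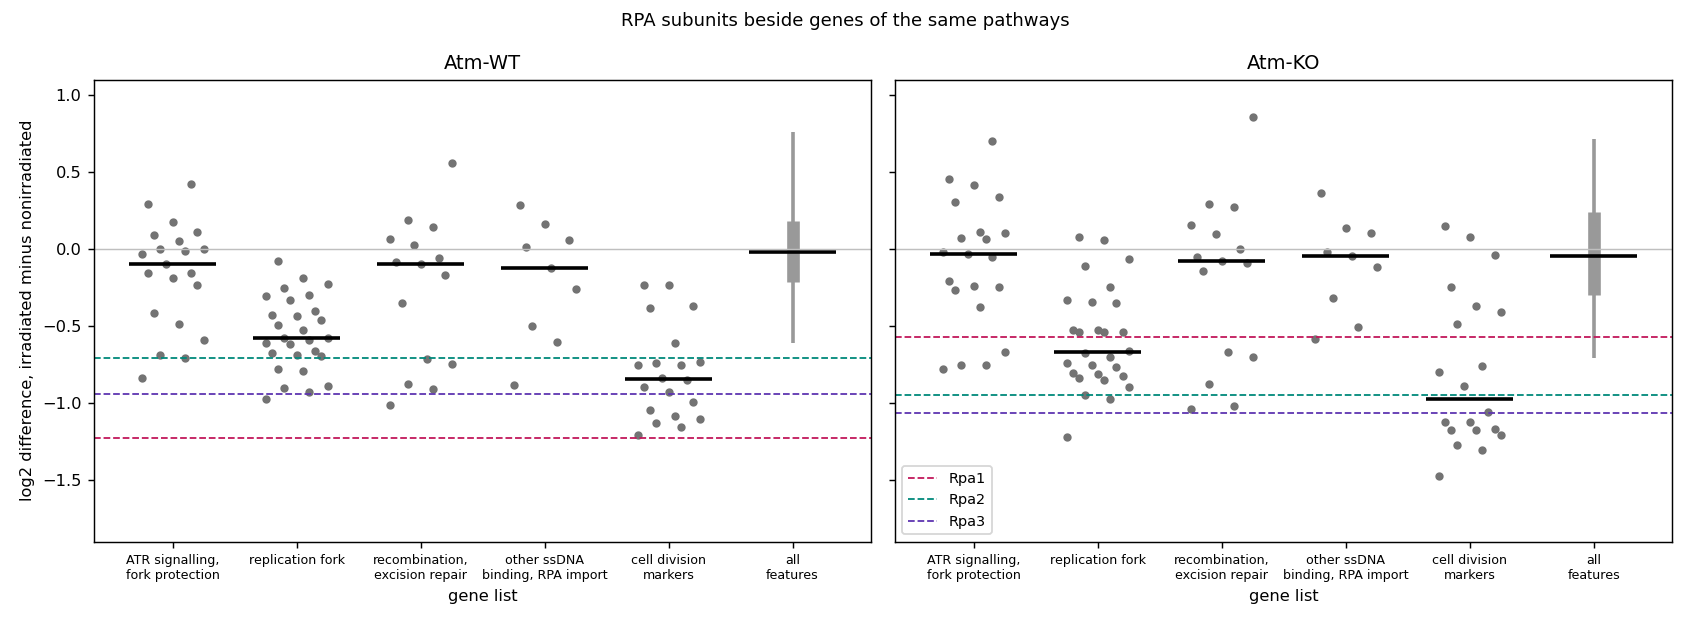
Log2 difference of irradiated minus nonirradiated cells for the genes of 5 lists in Atm-WT and Atm-KO cells. Each point is a gene and each black bar a list's median, the box at the right spans the 25th to 75th percentile of all features with a line from the 5th to the 95th, and dashed lines mark the 3 subunits. Rpa2 and Rpa3 lie within the range of the division markers in both panels, and Rpa1 lies at -1.23 in Atm-WT cells and at -0.57 in Atm-KO cells.

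The subunits' profiles over the 12 arrays were correlated to different degrees. Pearson's r was 0.872 between Rpa1 and Rpa3, 0.757 between Rpa2 and Rpa3, and 0.656 between Rpa1 and Rpa2, as a description over arrays that share groups and scaling. Among 12815 other named genes tested, Rpa3 ranked 22 in likeness to Rpa1 and Rpa2 ranked 710. In likeness to Rpa2, Rpa3 ranked 910 and Rpa1 ranked 1701. In likeness to Rpa3, Rpa1 ranked 192 and Rpa2 ranked 568. The 95th percentile of r over these genes was 0.668 for Rpa1, 0.794 for Rpa2 and 0.742 for Rpa3. The r between Rpa1 and Rpa2 was thus below it for both. Around the group means the order changed, with 0.701 between Rpa1 and Rpa2, 0.683 between Rpa1 and Rpa3, and 0.348 between Rpa2 and Rpa3.

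Each subunit had its own nearest genes. The 5 genes most like Rpa2 were Sapcd2, Tcf19, Cenpm, Ncapd2 and Coq7, with r from 0.978 to 0.979, and Mcm2 was ninth at 0.970. Cenpm is a centromere protein and Ncapd2 a condensin subunit. Mcm2 read 2.04, 2.20 and 1.98 in nonirradiated and 1.12, 1.63 and 1.40 in irradiated Atm-WT samples, and 2.55, 2.46 and 2.25 against 1.35, 1.79 and 1.57 in Atm-KO samples. Like Rpa2, it was higher in nonirradiated Atm-KO than in nonirradiated Atm-WT cells on average.

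The 5 genes most like Rpa3 were Snrpe, Cox7b, Ndufa1, Rpl31 and Tctex1d2, with r from 0.974 to 0.987. Snrpe encodes a spliceosomal Sm protein, Cox7b and Ndufa1 encode small subunits of the respiratory chain, and Rpl31 a ribosomal protein. Snrpe read 4.05, 4.29 and 4.36 in nonirradiated and 3.29, 3.48 and 3.12 in irradiated Atm-WT samples, and 4.72, 3.76 and 3.84 against 3.18, 3.14 and 2.94 in Atm-KO samples. Sample 1 of nonirradiated Atm-KO was its highest value, as it was for Rpa3.

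The 5 genes most like Rpa1 were Commd10, Dbi, Donson, Calca and Oard1, with lower r, from 0.900 to 0.918. Donson encodes a replication factor. It read -0.018, -0.065 and -0.36 in nonirradiated and -0.94, -0.95 and -1.16 in irradiated Atm-WT samples, and -0.18, -0.66 and -0.68 against -0.74, -1.21 and -1.18 in Atm-KO samples. Of these sets of 5, Spearman's rho kept 1 for Rpa1, 3 for Rpa2 and 2 for Rpa3 among its own top 5, and deviations from group means kept 0, 1 and 0. Over the fork list the median r was 0.844 for Rpa2, 0.700 for Rpa3 and 0.613 for Rpa1. Over all 12815 genes it was 0.187, 0.054 and 0.076 in the same order, and over the division markers 0.615, 0.777 and 0.675. Over the Atr and fork protection list it was -0.030 for Rpa2, 0.027 for Rpa3 and 0.013 for Rpa1.

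**Figure D4:**
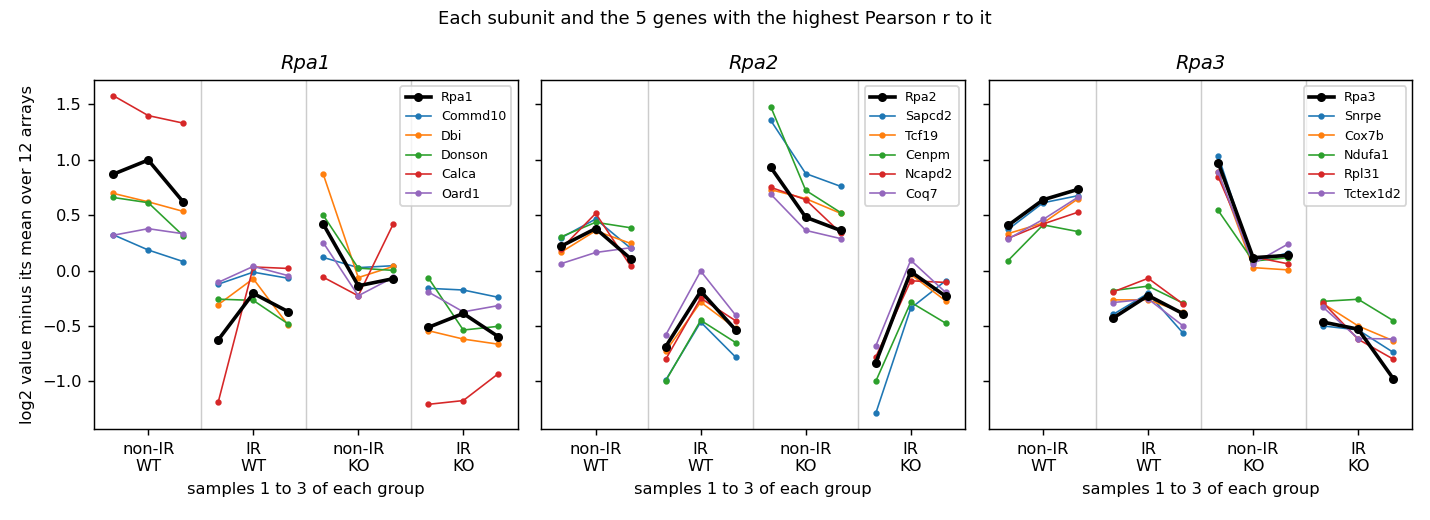
Log2 value minus its mean over the 12 arrays for each subunit (black) and the 5 genes with the highest Pearson r to it (coloured), for samples 1 to 3 of each group. The Rpa2 panel shows its sharpest change from Atm-KO sample 1 without irradiation to Atm-KO sample 1 with it, the Rpa3 panel has its peak in nonirradiated Atm-KO sample 1, and the Rpa1 panel is highest in nonirradiated Atm-WT cells.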

How the data were processed

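The deposited scanner tables give each spot's intensity, extracted per the file headers with Agilent Feature Extraction 10.7.1.1, with background subtraction and detrending within each array. Version 11.0 stands in the submitters' processing notes, and the difference was not resolved. The deposited matrix holds log2 values, which followed the same scaling (r of at least 0.9975 per array over 41174 probes, column medians -0.426 to 0.268), centred per probe, and was used as an alternative. Here control spots and outlier flags were left out, each array's 75th percentile was subtracted from its log2 processed signal, and 25097 of 41174 probes were named by accession through a RefSeq gene table. A gene took its brightest probe, and a feature was tested if well above background on all 3 arrays of a group (18440 features).

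Group means over all 12 arrays were fitted with limma 3.58.1 in R 4.3.3 (eBayes, Benjamini-Hochberg at 0.05 over all features), and the fit was tested on simulated data. Numbers pair the samples for irradiation, since deviations of same-numbered samples correlated at 0.481 to 0.852 in Atm-WT and 0.269 to 0.510 in Atm-KO cells, with Atm-KO sample 2 closer to another number (0.335). Same-numbered samples of different genotype correlated at -0.216 to 0.179 without irradiation and at 0.218 to 0.629 with it. Numbers were therefore not read as pairs of genotypes in the main results. In the genotype comparisons the block alternative nevertheless gave both genotypes a shared term for each number. Its genotype results thus match Atm-KO and Atm-WT samples by number. The files have no mean signal column, so normexp used the median signal, offset 50.

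The members and lists were chosen with earlier results of these data known. Genes named are the subunits, Atm, the 5 most like each subunit, in each list the 3 with the smallest p in the Atm-KO irradiation comparison, and Atr, Atrip, Pcna, Mcm2, Nabp1 and Nabp2. Other genes set by the rule are not reported here. The deposited log2 matrix, other background correction and normalization, filters, pairs, slide and left-out samples were the alternatives.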

Additional observations from a re-analysis of the deposited data

How the results depend on the processing

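Precision is limited by having 3 arrays in each group. Under 25 alternatives the difference with irradiation stayed below 0 for each subunit in each genotype, from -1.35 to -0.88 for Rpa1, -0.85 to -0.58 for Rpa2 and -1.12 to -0.67 for Rpa3 in Atm-WT cells, and from -0.93 to -0.39, -1.77 to -0.54 and -1.44 to -0.78 in Atm-KO cells. The cause of the shifts below was not tested.

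In Atm-WT cells Rpa1 differed by -0.88 with normexp and -0.99 within slide 2, and leaving out 1 sample gave -1.34 to -1.12 for Rpa1, -0.85 to -0.60 for Rpa2 and -1.03 to -0.87 for Rpa3. In Atm-KO cells leaving out 1 sample gave -0.67 to -0.39 for Rpa1, -1.12 to -0.71 for Rpa2 and -1.21 to -0.78 for Rpa3. With the replicate block Rpa3 passed there at -1.07 (limma adjusted p = 0.0343), and the adjusted p of the other alternatives reached 0.960; the block changed no other tested call of a subunit. In Atm-WT cells, where the subunits were not tested, Rpa1 and Rpa3 were among the 116 features past the threshold with the block.

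Before irradiation, Atm-KO minus Atm-WT was -0.51 for Rpa1 with normexp, -0.50 with slide as a block and -0.20 within slide 2. For Rpa3 it was 0.072, 0.15 and 0.24 under the same 3. Leaving out 1 sample gave -0.93 to -0.66 for Rpa1, 0.19 to 0.47 for Rpa2 and -0.47 to -0.037 for Rpa3. After irradiation it was 0.16 for Rpa1 and 0.021 for Rpa3 with slide as a block, and for Rpa2 -0.30 within slide 2 and -0.062 without irradiated Atm-KO sample 2. Leaving out 1 sample gave -0.21 to -0.00036 for Rpa1, -0.062 to 0.35 for Rpa2 and -0.40 to -0.15 for Rpa3.

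The difference of the irradiation effects was 0.31 for Rpa1 with normexp and 0.062 for Rpa2 without the number 1 samples, an alternative chosen after seeing the data, with or without the block. Leaving out 1 sample gave 0.55 to 0.84 for Rpa1, -0.42 to -0.0080 for Rpa2 and -0.27 to 0.16 for Rpa3. The Rpa2 minus Rpa3 change in Atm-KO cells was -0.11 without irradiated Atm-KO sample 3, and leaving out 1 sample gave 0.15 to 0.50 for Rpa1 minus Rpa2, 0.39 to 0.60 for Rpa1 minus Rpa3 and -0.11 to 0.45 for Rpa2 minus Rpa3.

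Counts of features called moved more. For irradiation in Atm-WT cells the 82 became 44 with normexp, 418 with the replicate block, 139 with slide as a block and 155 without the number 1 samples, and 48 to 95 when 1 sample was left out. In Atm-KO cells the 1 became 370 with the replicate block, 0 with normexp, quantile normalization, no filter, a filter on all 12 arrays, only the groups compared, or the block without the number 1 samples, and 0 to 2 when 1 sample was left out. Without irradiation the 159 genotype calls became 62 with normexp, 103 with no filter, 87 with the filter on all arrays, 316 with the block, 34 with slide as a block, 1597 without the number 1 samples and 1858 with the block as well, and 57 to 222 when 1 sample was left out. After irradiation the 38 became 13, 20, 15, 140, 3, 1040 and 1234 in the same order, and 3 to 105 when 1 sample was left out. For the difference of effects the 1 became 2 with quantile normalization, 4 with the block, 0 with normexp, no filter, slide as a block or the block without the number 1 samples, and 0 to 2 when 1 sample was left out.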
